A study of Mus musculus with 16 samples.

Results

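The genes described here are 51 genes of DNA replication and the S phase of the cell cycle, measured in mouse macrophages by RNA sequencing. They were taken by gene symbol from a list of named genes, chosen with earlier results of these data known. All 51 were found among the 54532 gene identifiers of each library. By role they are 10 genes of origin licensing, 6 of helicase activation, 9 of primase and the replicative polymerases, 5 of the sliding clamp and its loader, 3 of single-strand binding, 2 of Okazaki fragment maturation, 4 of nucleotide supply, 1 checkpoint mediator, 3 of chromatin assembly and histone mRNA, 2 of maintenance DNA methylation and 6 G1/S cyclins and E2F factors. They lie on 15 chromosomes. All 51 passed the filter on low counts in each fit, and the least abundant member, Fen1, had 898 counts over the 16 libraries. Exons of 17 members overlap a gene on the opposite strand, and whether counting used strand was not stated in the sources used here.

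Bone marrow cells became macrophages over 7 days in M-CSF (20 ng/mL), on which macrophages depend to survive and divide. Some were then given tumor-conditioned medium (TCM), here 70% medium taken from YUMM1.7 mouse melanoma cells, for 24 h. The 16 libraries form 5 groups. Wild-type cells were cultured without TCM (WT naive, 3 libraries) or with it (WT TCM, 3 libraries), and cells lacking TRAP1, a mitochondrial chaperone of the HSP90 family, were cultured with it (TRAP1 KO TCM, 4 libraries). The JMJD3 line gave wild-type cells (JMJD3 WT TCM, 3 libraries) and conditional knockout cells (JMJD3 cKO TCM, 3 libraries), both with TCM, so no group of that line lacked it. JMJD3 is the histone H3 lysine 27 demethylase that Kdm6b encodes. The promoter that drives deletion of the conditional allele, its deleted exons, and the age and strain of the mice were not named in the sources used here.

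Replication starts when the origin recognition complex, CDC6 and CDT1 load the MCM helicase onto DNA in G1. Kinases and the CDC45 and GINS proteins then switch the helicase on, primase and the DNA polymerases copy the strands, and PCNA holds the polymerases on their template. Most of these genes are transcribed in a wave at the G1/S transition under the E2F factors, so their mRNA is commonly used as a readout of cycling cells. Bone marrow macrophages divide in response to M-CSF and stop dividing as they mature or are activated.

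Library totals ran from 15361604 to 22426820 counts. Trap1 held 3 counts over the 4 knockout libraries, against 61.4 to 71.5 CPM (each count as a share of its library's total, scaled by the trimmed mean of M values, TMM) in WT TCM. Kdm6b was at 23.3 to 26.7 CPM for JMJD3 WT TCM and at 24.4 to 26.3 CPM in the libraries labelled JMJD3 cKO, with a log2 fold change of 0.04 (SE 0.071, adjusted p = 0.75). Such whole-gene counts cannot show whether some exons were deleted, and every direction given below for that genotype rests on the label. The first principal component of all genes held 50.8% of the variance and set the JMJD3 line apart from the other libraries. Xist was at 840 to 935 CPM in the JMJD3 line, where the Y-linked gene Ddx3y had 0 counts, and Ddx3y was at 83.8 to 91.6 CPM in the other groups, so line and sex cannot be told apart. All 8 macrophage markers were detected in each group. Nothing in the labels ties replicates to separate animals or cultures, so p-values here reflect library-to-library spread, possibly technical only.

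By their median, the 51 genes were highest in WT TCM and lowest in JMJD3 WT TCM across the 5 groups. To compare libraries, each gene's log2 CPM was set against its own mean over the 16 libraries, and the median over the 51 genes was taken. That median was 0.21 to 0.24 for WT naive, 0.52 to 0.56 for WT TCM, -0.0022 to 0.041 for TRAP1 KO TCM, -0.56 to -0.51 for JMJD3 WT TCM and -0.25 to -0.18 for JMJD3 cKO TCM. No library of any group entered the range of another group. The lowest group depended on the summary. The summed CPM of the 51 genes was lowest for TRAP1 KO TCM (1445 to 1464, against 1472 to 1547 for JMJD3 WT TCM). That sum leaves out Pcna-ps2, a near-identical copy of Pcna described below. The copy averaged 55.5 CPM for TRAP1 KO TCM and 4.55 for JMJD3 WT TCM, so the gap between these groups depends on how it is counted. Without Pcna the sum was lowest for JMJD3 WT TCM (973 to 974, against 1276 to 1292). By group mean, 45 of the 51 genes were highest in WT TCM and 37 were lowest in JMJD3 WT TCM. Cdt1 and Gins4 were highest in WT naive, Rpa3 for TRAP1 KO TCM, and Pcna, Rfc2 and Pold3 for JMJD3 WT TCM. In bulk RNA, fewer cells in S phase and less of these transcripts per cell cannot be told apart.

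**Figure D1:**
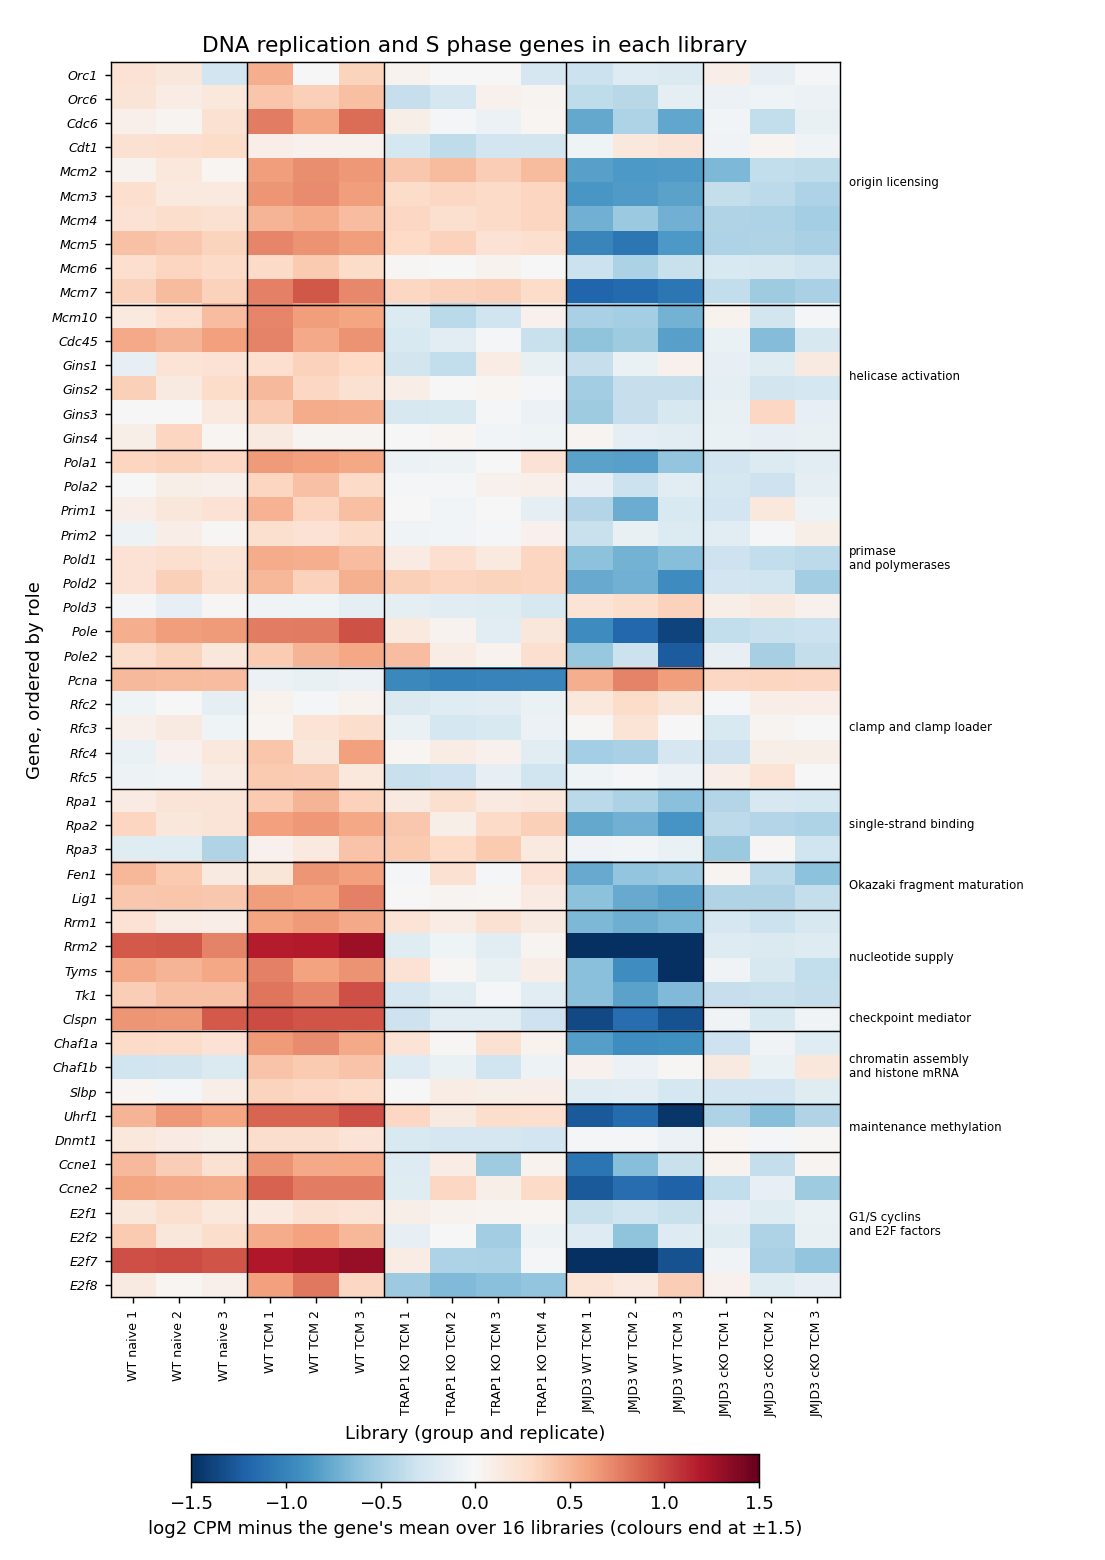
Each row is 1 of the 51 genes, ordered by role, and each column is 1 library; colour gives log2 CPM minus the gene's mean over the 16 libraries (red above, blue below, colours end at 1.5). Most rows are reddest in WT TCM and bluest in JMJD3 WT TCM. Other rows do not follow that order, among them Pcna, Rfc2, Pold3, E2f8, Cdt1, Gins4 and Rpa3.

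The response of wild-type macrophages to melanoma medium was read from WT TCM against WT naive. Among those that rose were 7 of 10 licensing genes, 7 of 9 primase and polymerase genes, 3 of 4 genes of nucleotide supply and all 3 of chromatin assembly and histone mRNA, while the clamp gene Pcna fell. In all, 32 of the 51 genes were called higher (adjusted p under 0.05) and 2 were called lower, while 21.6% of the 14078 genes tested were called higher and 20.6% lower. The median log2 fold change was 0.28 over the 51 genes and -0.01 over all genes tested, and the range was -0.57 to 0.68, so no member changed 2-fold. The strongest rise was that of Chaf1b (0.68, SE 0.081, adjusted p = 6.3e-12), a subunit of the chromatin assembly factor, followed by Cdc6 (0.62) and Mcm2 (0.58). The genes called lower were Pcna (-0.57) and Cdt1 (-0.17). When any 1 library was left out, 26 to 33 members were called higher, with Clspn and Rfc2 gaining a call in some of these fits. The calls of Orc6, Prim1, Prim2, Pold2, Pole, Rfc4 and E2f2 were each lost without 1 or more of the 6 wild-type libraries, at log2 fold changes of 0.16 to 0.30, and their adjusted p ranged from 0.0035 to 0.13 over 19 alternatives.

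The effect of losing the chaperone under the same medium was read from TRAP1 KO TCM against WT TCM. Genes of every role fell, most strongly the S-phase genes E2f7, Rrm2, E2f8, Clspn and Tk1. Of the 51 genes, 45 were called lower and 0 higher, while 21% of all genes tested were called lower and 21.2% higher. No member had a log2 fold change above 0 at an unadjusted p under 0.05, and DESeq2 also called 0 higher. The median was -0.45 over the 51 genes and 0.01 over all genes, with a range of -1.48 to 0.11 and 4 genes at least 2-fold lower. The 6 genes that were not called were Orc1 (-0.36, adjusted p = 0.068), Gins4 (-0.09), Pold2 (-0.12), Pold3 (-0.08), Pole2 (-0.26) and Rpa3 (0.11). Fen1 (-0.39, adjusted p = 0.048) lost its call in 10 of 19 alternatives (adjusted p 0.014 to 0.24), among them leaving out WT TCM replicate 2 (-0.30) or 3 (-0.34), TRAP1 KO TCM replicate 1 (-0.35) or 3 (-0.35), or any WT naive library (-0.39). E2f1 lost its call without WT TCM replicate 2 (-0.12, adjusted p 0.0052 to 0.056 over the 19 alternatives). Rfc4 lost its call without WT TCM replicate 3 (-0.29, adjusted p 0.0014 to 0.084 over the same alternatives).

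Against WT naive, a comparison in which both genotype and medium differed, TRAP1 KO TCM had 28 members lower and 3 higher, while 28.8% of all genes were lower and 27.7% higher. The median log2 fold change was -0.20. The 3 higher were Rpa3 (0.59), Mcm2 (0.36) and Mcm3 (0.13), and the lowest were Pcna (-1.46) and E2f7 (-1.19). With the counts of its pseudogene copies added, as described below, Pcna was at -1.07, above E2f7. This comparison and the previous one use the same TRAP1 KO libraries.

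JMJD3 cKO TCM was compared with JMJD3 WT TCM, the wild type of its own line. In the libraries labelled JMJD3 cKO, 7 of 10 licensing genes, 5 of 9 primase and polymerase genes and all 4 genes of nucleotide supply were higher. The largest differences were those of Rrm2 (1.58), E2f7 (1.28) and Clspn (1.19). In all, 28 of the 51 genes were called higher and 4 lower, while 17.3% of the 13476 genes tested were called higher and 17.8% lower. The median was 0.35 over the 51 genes and 0.01 over all genes, with a range of -0.32 to 1.58 and 3 genes at least 2-fold higher. The genes called lower were Pcna (-0.32), E2f8 (-0.32), Pold3 (-0.17) and Rfc2 (-0.14). The calls of Mcm4, Mcm6, Prim1, Rfc2, Rfc4, Rpa1, Ccne1 and E2f8 were each lost without at least 1 of the 6 libraries, at log2 fold changes of 0.08 to 0.54 in size, and their adjusted p ranged from 0.0016 to 0.20 over 15 alternatives, with no change of sign.

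**Figure D2:**
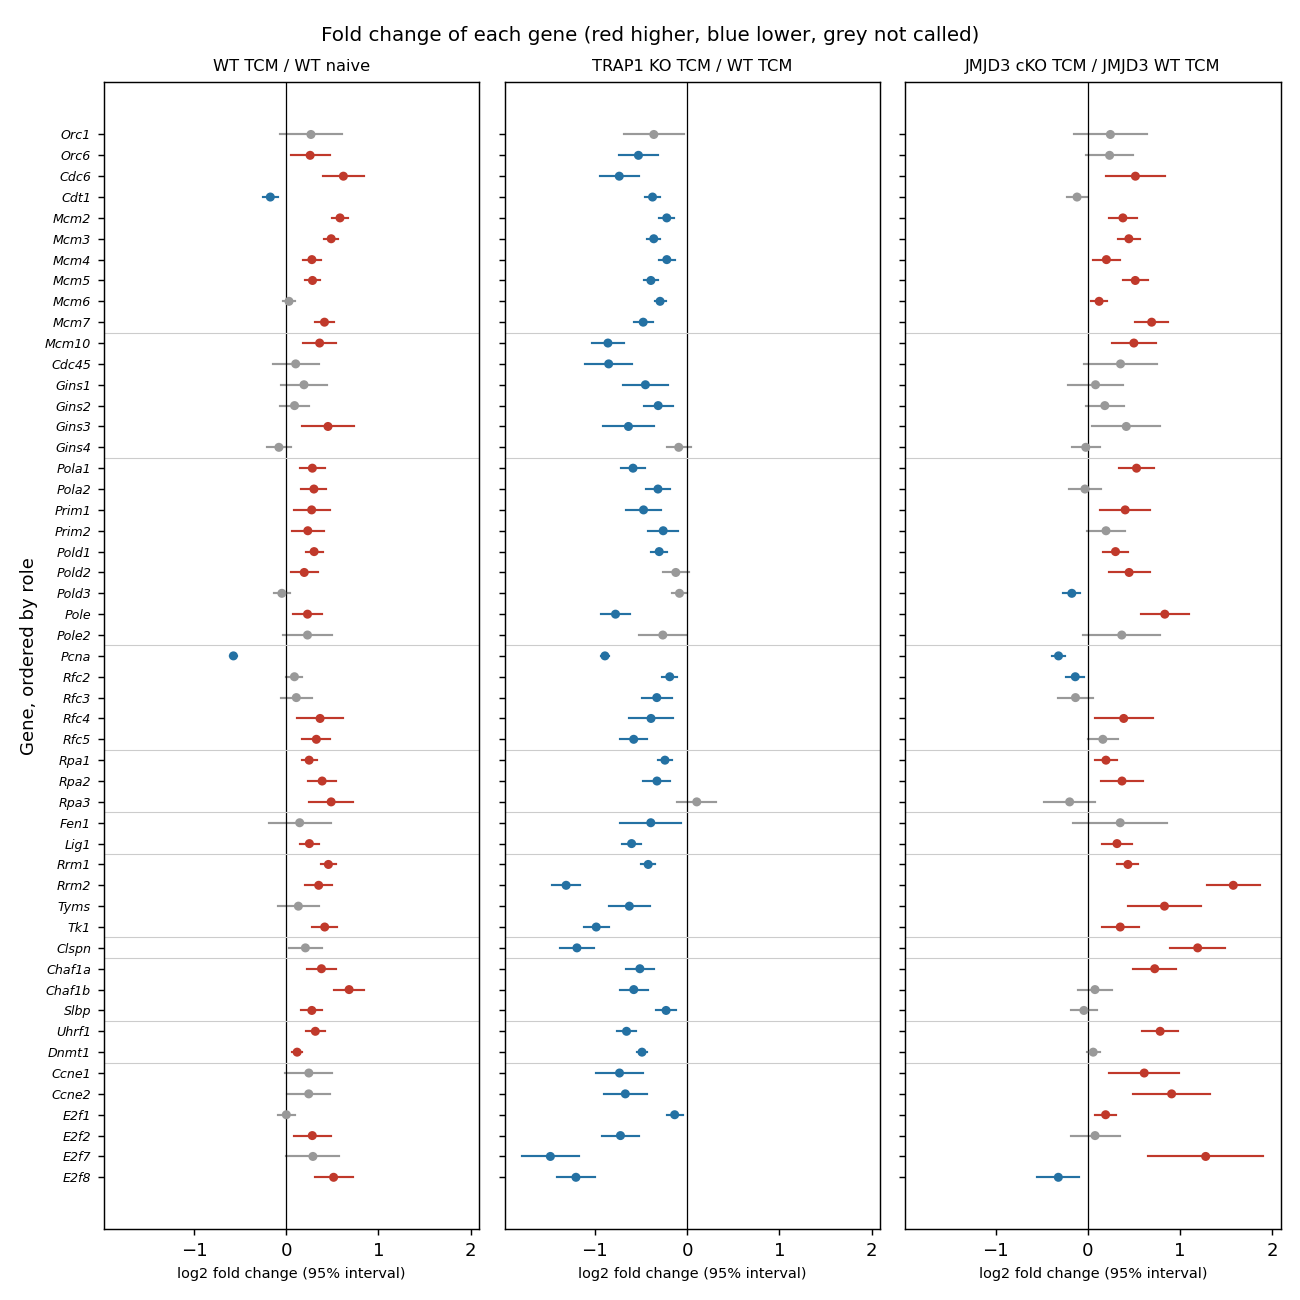
Each point is the log2 fold change of 1 gene with its 95% interval, for WT TCM over WT naive (left), TRAP1 KO TCM over WT TCM (middle) and JMJD3 cKO TCM over JMJD3 WT TCM (right); red was called higher, blue lower and grey was not called. The counts are 32 higher and 2 lower on the left, 45 lower in the middle, and 28 higher and 4 lower on the right.

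The TRAP1 and JMJD3 comparisons share no library. Of the 45 genes lower without TRAP1, 27 (60%) were higher in JMJD3 cKO, and these made up 96.4% of the 28 genes higher there. Since 45 of all 51 members were lower without TRAP1, a high share among those 28 is not by itself a result. Pcna, Rfc2 and E2f8 were lower in both, and Pold2 was higher in JMJD3 cKO without a call in the TRAP1 comparison. The difference of the genotype effects was tested in 1 fit of all 16 libraries. The TRAP1 effect was lower than the JMJD3 effect for 45 of the 51 genes and higher for 0 (0 at an unadjusted p under 0.05, and 0 by DESeq2), while 19.5% of all 14545 genes were lower and 18.4% higher. The median difference was -0.75 on the log2 scale, and 1 member became higher when JMJD3 cKO TCM replicate 2 was left out.

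The wild-type controls themselves differed. Against WT TCM, JMJD3 WT TCM had 45 members lower and 3 higher (Pcna at 0.73, Pold3 at 0.36 and Rfc2 at 0.18), while 31.3% of all genes were lower and 30% higher. The median log2 fold change was -1.17, and 26 members were at least 2-fold lower. Rrm2 was lower by the most (-3.00), with E2f7 next (-2.93). Both groups had TCM, and line and sex cannot be told apart here. The rises in the libraries labelled JMJD3 cKO thus started from the lowest levels in the series, and no member was highest in that group.

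Origin licensing genes form the MCM ring and load it at origins. Of these 10 genes, 7 rose and 1 fell with TCM, 9 fell without TRAP1, and 7 were higher and 0 lower in JMJD3 cKO. Mcm2, a ring subunit (chromosome 6, 88883474 to 88898780, GRCm38), was at 40.2, 43.3 and 39.6 CPM for WT naive, 60.2, 63.1 and 61.2 for WT TCM and 51.5, 54.1, 50.3 and 54.2 for TRAP1 KO TCM. In the JMJD3 line it was at 22.1, 21.3 and 21.5 CPM for JMJD3 WT TCM and 24.2, 30.016 and 29.7 for JMJD3 cKO TCM. No group overlapped another, and replicate 1 of JMJD3 cKO TCM lay nearest its controls. Mcm2 rose with TCM (0.58, SE 0.046, adjusted p = 3.5e-20), fell without TRAP1 (-0.22, SE 0.042, adjusted p = 6.8e-06) and was higher in JMJD3 cKO (0.38, SE 0.077, adjusted p = 0.00010). The drop without TRAP1 was thus smaller than the rise with TCM, and Mcm2 stayed above WT naive.

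Mcm3, another ring subunit, was at 65.3, 60.8 and 61.0 CPM for WT naive, 87.0, 89.8 and 85.3 for WT TCM and 66.9, 68.1, 67.0 and 68.8 for TRAP1 KO TCM. It was at 30.1, 30.6 and 31.5 CPM for JMJD3 WT TCM and 43.0, 42.0 and 40.025 for JMJD3 cKO TCM. All 4 knockout libraries lay below every WT TCM library and just above the naive ones. Mcm3 rose with TCM (0.49), fell without TRAP1 (-0.36) and was higher in JMJD3 cKO (0.44), each with an adjusted p of 5.5e-08 or less. Mcm6, the ring subunit with the most reads, differed in its response to TCM: it was at 126, 133 and 130 CPM for WT naive, 130, 139 and 129 for WT TCM and 108, 107, 111 and 106 for TRAP1 KO TCM. The naive and TCM libraries overlapped (0.03, 95% interval -0.03 to 0.09, adjusted p = 0.47), and the knockout libraries lay below both (-0.29, SE 0.030, adjusted p = 2.7e-14). In the JMJD3 line Mcm6 was at 85.0, 76.5 and 84.1 CPM against 91.0, 89.6 and 86.0 for JMJD3 cKO TCM, with the nearest libraries of the groups side by side (0.12, SE 0.043, adjusted p = 0.025, above 0.05 in 4 of 15 alternatives).

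Because the ring holds 1 copy of each of its 6 subunits, their levels were also compared per kilobase of exon. In WT TCM the lowest was Mcm2 at 8.85 CPM per kilobase and the highest Mcm6 at 28.4, a ratio of 3.21. The ratio of highest to lowest was 4.72 for WT naive, 3.06 for TRAP1 KO TCM, 6.46 for JMJD3 WT TCM and 4.73 for JMJD3 cKO TCM, with Mcm6 the highest in every group and Mcm2 or Mcm7 the lowest. The length used joins all annotated exons of a gene (6956 bases for Mcm2, 4666 for Mcm6) and can exceed that of its mRNA. The order of the subunits and the ratios therefore depend on the annotation and do not measure the make-up of the ring. All 6 subunits fell without TRAP1 and were higher in JMJD3 cKO, and all but Mcm6 rose with TCM. Mcm7 spanned the most, from -1.96 between JMJD3 WT TCM and WT TCM to 0.69 in JMJD3 cKO.

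Cdt1, which delivers the ring to origins and is removed as S phase begins, went against most other licensing genes with TCM but fell with them without TRAP1. It was at 62.6, 63.2 and 64.4 CPM for WT naive, 57.2, 55.8 and 55.7 for WT TCM and 44.3, 40.9, 43.5 and 44.1 for TRAP1 KO TCM. It was at 50.9, 59.4 and 61.1 CPM for JMJD3 WT TCM and 51.4, 54.8 and 51.2 for JMJD3 cKO TCM. Levels stepped down from naive to TCM to knockout without overlap, while the groups of the JMJD3 line overlapped. Cdt1 fell with TCM (-0.17, SE 0.042, adjusted p = 0.00046) and without TRAP1 (-0.37, SE 0.042, adjusted p = 1.4e-12) and was not called in JMJD3 cKO (-0.12, 95% interval -0.23 to -0.01, adjusted p = 0.094), although it passed without JMJD3 WT TCM replicate 1 (-0.20) and with all 16 libraries in the fit (-0.12, adjusted p = 0.043; range 0.0030 to 0.44 over 15 alternatives).

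The 6 genes of helicase activation include Mcm10, Cdc45 and the 4 GINS subunits, which turn the loaded ring into a moving helicase. Of them 2 rose with TCM (Mcm10 and Gins3), 5 fell without TRAP1 and 1, Mcm10, was higher in JMJD3 cKO, where 17.3% of all genes were higher. With TCM 21.6% of all genes rose, so the 2 of 6 are not far above that share. Mcm10 (-0.86) and Cdc45 (-0.85) fell the most without TRAP1. Gins4, the most abundant of the 6, was at 26.0, 30.6 and 24.8 CPM for WT naive, 26.9, 25.1 and 25.1 for WT TCM, 24.2, 24.8, 23.7 and 23.3 for TRAP1 KO TCM, 25.1, 22.2 and 21.8 for JMJD3 WT TCM and 22.8, 22.4 and 22.5 for JMJD3 cKO TCM. Its groups lay close together, and it passed the threshold in none of the 3 comparisons (log2 fold changes -0.08, -0.09 and -0.02, adjusted p 0.28 or more). The 4 GINS subunits form 1 complex, and by contrast Gins3 rose by 0.45 with TCM and fell by 0.64 without TRAP1.

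Among primase and the polymerases, 7 of 9 genes rose with TCM, 6 fell without TRAP1, and 5 were higher and 1 lower in JMJD3 cKO. Pole, the catalytic subunit of the leading-strand polymerase, fell by 0.78 without TRAP1 and was higher by 0.83 in JMJD3 cKO. Pola1, the catalytic subunit of the polymerase that starts new strands, fell by 0.59 and was higher by 0.53 in the same comparisons; it is on the X chromosome. Pold3, an accessory subunit of the lagging-strand polymerase, was at 56.5, 52.8 and 58.2 CPM for WT naive, 55.2, 54.8 and 51.7 for WT TCM and 52.4, 51.2, 50.7 and 48.6 for TRAP1 KO TCM. It was at 66.3, 69.0 and 73.2 CPM for JMJD3 WT TCM and 61.2, 62.8 and 60.2 for JMJD3 cKO TCM. WT TCM overlapped both WT naive and TRAP1 KO TCM, and both groups of the JMJD3 line lay above all 3. Pold3 was lower in JMJD3 cKO (-0.17, SE 0.046, adjusted p = 0.0025) and was not called with TCM (-0.05) or without TRAP1 (-0.08, adjusted p = 0.12).

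The clamp and its loader had the lowest median log2 fold change of the roles with TCM (0.11) and in JMJD3 cKO (-0.13). Of the 5 genes, 2 rose and 1 fell with TCM, and all 5 fell without TRAP1. In JMJD3 cKO 1 was higher and 2 were lower. The 1 that fell with TCM and the 1 higher in JMJD3 cKO are near the shares of all genes (20.6% and 17.3%). Pcna, the sliding clamp (chromosome 2, 132249162 to 132253314, minus strand), was the most abundant member in every group. It was at 480, 475 and 474 CPM for WT naive, 322, 316 and 322 for WT TCM and 175, 170, 171 and 172 for TRAP1 KO TCM. It was at 499, 573 and 528 CPM for JMJD3 WT TCM and 423, 428 and 426 for JMJD3 cKO TCM. Pcna was thus lower with TCM, lower again without TRAP1, and highest in JMJD3 WT TCM, with no overlap in any of the comparisons.

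The size of the Pcna change without TRAP1 depended on how a near-identical copy was counted. Pcna-ps2 is a processed pseudogene on chromosome 19 (9283380 to 9284160, plus strand) that is 99.2% identical to the Pcna transcript over 781 bases. It was at 4.01 ± 0.169 CPM for WT naive (SD, n = 3), 2.37 ± 0.417 for WT TCM, 55.5 ± 1.58 for TRAP1 KO TCM (n = 4), 4.55 ± 0.477 for JMJD3 WT TCM and 3.30 ± 0.670 for JMJD3 cKO TCM. It took 24.4% ± 0.750 of the joint count in TRAP1 KO TCM and 0.73% to 0.85% on average in the other groups. How reads shared by the gene and its copy were assigned was not stated in the sources used here. With the copies' counts added to their genes, an alternative chosen after seeing the data, Pcna fell by 0.50 without TRAP1 (SE 0.020, adjusted p = 6.1e-39) in place of 0.89, and the joint level was 323 ± 4.01 CPM for WT TCM and 227 ± 1.13 for TRAP1 KO TCM. The log2 changes with TCM (-0.57) and in JMJD3 cKO (-0.32) were the same to 2 decimals. Pseudogene copies of at least 200 aligned bases and 90% identity were found for 12 members (19 copies), and Pcna-ps2 alone had 100 counts or more over the 16 libraries.

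**Figure D3:**
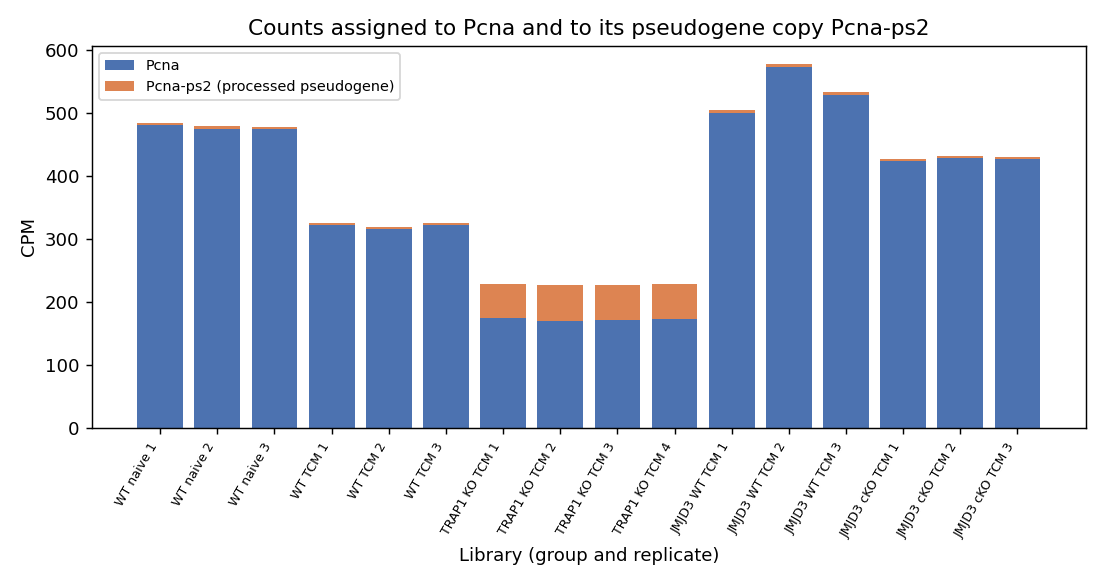
Stacked bars give, for each library, the CPM assigned to Pcna (blue) and to its processed pseudogene Pcna-ps2 (orange). The orange part is 53.4 to 57.2 CPM in the 4 TRAP1 KO TCM libraries and 5.04 CPM or less in the other 12, and the joint height is still lowest in TRAP1 KO TCM.

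Rfc2, a subunit of the complex that opens the clamp and loads it, was at 54.7, 57.2 and 52.4 CPM for WT naive, 59.5, 55.9 and 59.5 for WT TCM and 49.3, 50.4, 50.7 and 53.3 for TRAP1 KO TCM. It was at 64.1, 69.5 and 64.8 CPM for JMJD3 WT TCM and 56.5, 61.5 and 61.5 for JMJD3 cKO TCM. Its naive and TCM libraries overlapped, and its highest group was JMJD3 WT TCM, as for Pcna. Rfc2 fell without TRAP1 (-0.19, SE 0.042, adjusted p = 0.00012) and was lower in JMJD3 cKO (-0.14, SE 0.048, adjusted p = 0.023, above 0.05 in 5 of 15 alternatives). Rfc4 and Rfc5, other loader subunits, rose with TCM by 0.37 and 0.33 and fell without TRAP1 by 0.39 and 0.58.

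RPA coats the single strands that the helicase exposes. All 3 RPA genes rose with TCM, and Rpa1 and Rpa2 fell without TRAP1 and were higher in JMJD3 cKO. Rpa1 was at 60.7, 63.7 and 63.3 CPM for WT naive, 73.2, 79.0 and 70.7 for WT TCM, 61.1, 65.6, 61.1 and 62.5 for TRAP1 KO TCM, 41.9, 39.9 and 35.9 for JMJD3 WT TCM and 41.0, 46.8 and 46.4 for JMJD3 cKO TCM. The naive and knockout libraries overlapped, and the groups of the JMJD3 line overlapped. Rpa1 rose by 0.25 with TCM, fell by 0.24 without TRAP1 (adjusted p = 1.2e-07) and was higher by 0.20 in JMJD3 cKO (adjusted p = 0.011, above 0.05 in 3 of 15 alternatives). Rpa3, the smallest RPA subunit, rose by 0.49 with TCM and was not called without TRAP1 (0.11, 95% interval -0.11 to 0.32, adjusted p = 0.46).

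Lig1, the ligase that seals Okazaki fragments, was at 40.6, 41.0 and 40.5 CPM for WT naive, 47.3, 46.6 and 51.7 for WT TCM, 30.8, 31.6, 31.3 and 33.3 for TRAP1 KO TCM, 20.0, 18.1 and 17.4 for JMJD3 WT TCM and 22.4, 22.5 and 24.0 for JMJD3 cKO TCM. No group overlapped another, and the knockout lay below WT naive as well as WT TCM. Lig1 rose by 0.25 with TCM, fell by 0.60 without TRAP1 (SE 0.050, adjusted p = 5.2e-19) and was higher by 0.31 in JMJD3 cKO (SE 0.079, adjusted p = 0.0015). Fen1, the flap nuclease that works before it, was scarce (1.75 to 3.98 CPM on average) and was called only without TRAP1 among these comparisons.

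The 4 genes of nucleotide supply fell without TRAP1 by a median of 0.80 and were all higher in JMJD3 cKO, by a median of 0.63. Rrm2, the subunit of ribonucleotide reductase that appears in S phase, had the largest difference of the set in JMJD3 cKO. It was at 20.9, 21.1 and 18.5 CPM for WT naive, 25.1, 25.3 and 27.0 for WT TCM and 9.68, 10.5, 9.73 and 11.3 for TRAP1 KO TCM. It was at 3.77, 2.77 and 3.06 CPM for JMJD3 WT TCM and 9.61, 9.48 and 9.61 for JMJD3 cKO TCM, so each JMJD3 cKO library held more than every control library and came near the TRAP1 KO level. Rrm2 rose by 0.35 with TCM (SE 0.074, adjusted p = 3.6e-05), fell by 1.31 without TRAP1 (SE 0.076, adjusted p = 6.4e-28) and was higher by 1.58 in JMJD3 cKO (SE 0.14, adjusted p = 1.8e-12).

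Rrm1, the constant subunit of the same enzyme, was at 65.8, 61.3 and 61.0 CPM for WT naive, 85.6, 88.6 and 84.2 for WT TCM, 65.3, 61.4, 66.8 and 62.5 for TRAP1 KO TCM, 35.5, 34.2 and 35.2 for JMJD3 WT TCM and 47.5, 45.4 and 48.3 for JMJD3 cKO TCM. Its knockout and naive libraries overlapped, unlike those of Rrm2. Rrm1 rose by 0.46, fell by 0.42 and was higher by 0.43 in the 3 comparisons. The thymidine genes Tk1, a kinase of the salvage route, and Tyms, thymidylate synthase, fell by 0.98 and 0.63 without TRAP1 and were higher by 0.35 and 0.83 in JMJD3 cKO. Tk1 rose by 0.42 with TCM, and Tyms was not called (0.13, adjusted p = 0.36).

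Clspn, or claspin, links stalled forks to the checkpoint kinase CHK1. It was at 13.1, 13.02 and 15.6 CPM for WT naive, 16.3, 15.9 and 15.961 for WT TCM and 6.63, 7.31, 7.30 and 6.63 for TRAP1 KO TCM. It was at 3.16, 3.67 and 3.25 CPM for JMJD3 WT TCM and 7.92, 7.04 and 7.91 for JMJD3 cKO TCM. The knockout libraries lay below the naive ones, and the groups of the JMJD3 line did not overlap. Clspn fell by 1.19 without TRAP1 (SE 0.093, adjusted p = 3.3e-20) and was higher by 1.19 in JMJD3 cKO (SE 0.15, adjusted p = 9.7e-09). With TCM it was at 0.21 (adjusted p = 0.053) and passed in 6 of 19 alternatives (adjusted p 0.013 to 0.21), among them leaving out WT naive replicate 3 (0.30) or TRAP1 KO TCM replicate 2 or 4 (0.21).

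The chromatin group holds Chaf1a and Chaf1b, which deposit histones behind the fork, and Slbp, which binds the stem-loop of histone mRNA. All 3 rose with TCM and fell without TRAP1. Slbp was at 30.006, 29.0 and 31.2 CPM for WT naive, 37.0, 36.4 and 35.9 for WT TCM, 29.3, 31.8, 31.3 and 31.5 for TRAP1 KO TCM, 25.8, 26.3 and 24.4 for JMJD3 WT TCM and 24.1, 24.0 and 25.8 for JMJD3 cKO TCM. Its knockout and naive libraries overlapped, and the groups of the JMJD3 line overlapped. Slbp rose by 0.28, fell by 0.23 without TRAP1 (adjusted p = 0.00029) and was not called in JMJD3 cKO (-0.04, 95% interval -0.19 to 0.10). The partners of the assembly factor parted in JMJD3 cKO, where Chaf1a was higher (0.72, adjusted p = 1.9e-06) and Chaf1b was not called (0.08, 95% interval -0.11 to 0.26); the difference between them was not tested.

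Uhrf1 and Dnmt1 copy DNA methylation onto the new strand. Uhrf1, which finds hemimethylated sites, was at 37.4, 41.3 and 39.7 CPM for WT naive, 48.0, 48.1 and 51.6 for WT TCM and 32.5, 28.7, 31.6 and 31.3 for TRAP1 KO TCM. It was at 10.9, 11.8 and 9.51 CPM for JMJD3 WT TCM and 19.1, 16.8 and 19.2 for JMJD3 cKO TCM. All groups were apart, and Uhrf1 rose by 0.32, fell by 0.66 (adjusted p = 1.5e-20) and was higher by 0.78 (adjusted p = 1.2e-08) in the 3 comparisons. Dnmt1, the methyltransferase, was at 166, 163 and 159 CPM for WT naive, 179, 179 and 173 for WT TCM, 128, 126, 126 and 122 for TRAP1 KO TCM, 148, 148 and 141 for JMJD3 WT TCM and 153, 148 and 152 for JMJD3 cKO TCM. Its lowest group was TRAP1 KO TCM. Dnmt1 rose by 0.12 with TCM (adjusted p = 0.00024), fell by 0.49 without TRAP1 (SE 0.027, adjusted p = 2.2e-29) and was not called in JMJD3 cKO (0.06, 95% interval -0.01 to 0.13).

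The cyclins and E2F factors of the G1/S switch comprised the activators E2f1 and E2f2, the repressors E2f7 and E2f8, which are themselves made in S phase, and the cyclins Ccne1 and Ccne2. All 6 fell without TRAP1, 2 rose with TCM, and 4 were higher and 1 lower in JMJD3 cKO. The 1 lower in JMJD3 cKO is near the share of all genes (17.8%). The 2 of 6 that rose with TCM are not far above the share of all genes (21.6%). E2f1 changed little: it was at 50.7, 53.3 and 50.3 CPM for WT naive, 49.9, 52.9 and 51.9 for WT TCM, 48.0, 46.5, 46.5 and 45.8 for TRAP1 KO TCM, 35.6, 36.4 and 35.8 for JMJD3 WT TCM and 41.2, 39.7 and 41.8 for JMJD3 cKO TCM. It fell by 0.13 without TRAP1 (SE 0.043, adjusted p = 0.0082), was higher by 0.19 in JMJD3 cKO (SE 0.057, adjusted p = 0.0070) and was at 0.00 with TCM (95% interval -0.09 to 0.09). The call without TRAP1 was lost without WT TCM replicate 2 (-0.12, adjusted p 0.0052 to 0.056 over 19 alternatives).

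E2f7 had the strongest fall without TRAP1. It was at 5.05, 5.07 and 4.95 CPM for WT naive, 5.95, 6.12 and 6.40 for WT TCM and 2.73, 1.80, 1.79 and 2.48 for TRAP1 KO TCM. In the JMJD3 line it was at 0.681, 0.762 and 0.957 CPM (37 counts over the 3 libraries) and at 2.43, 1.77 and 1.65 CPM for JMJD3 cKO TCM. E2f7 fell by 1.48 without TRAP1 (SE 0.16, adjusted p = 7.9e-14) and was higher by 1.28 in JMJD3 cKO (SE 0.31, 95% interval 0.65 to 1.90, adjusted p = 0.0010), with no overlap in either.

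E2f8, its closest relative, followed it in the TRAP1 comparison but not in the JMJD3 line. It was at 9.65, 8.98 and 9.33 CPM for WT naive, 13.5, 15.3 and 10.957 for WT TCM and 5.99, 5.51, 5.66 and 5.82 for TRAP1 KO TCM. It was at 10.1, 9.77 and 11.4 CPM for JMJD3 WT TCM and 9.19, 7.76 and 8.10 for JMJD3 cKO TCM. The knockout libraries were the lowest and the WT TCM libraries the most spread. E2f8 rose by 0.51 with TCM, fell by 1.204 without TRAP1 (SE 0.11, adjusted p = 1.2e-17) and was lower by 0.32 in JMJD3 cKO (SE 0.11, adjusted p = 0.024, above 0.05 in 5 of 15 alternatives). Between the controls, JMJD3 WT TCM was lower than WT TCM by 2.93 for E2f7 and by 0.35 for E2f8.

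**Figure D4:**
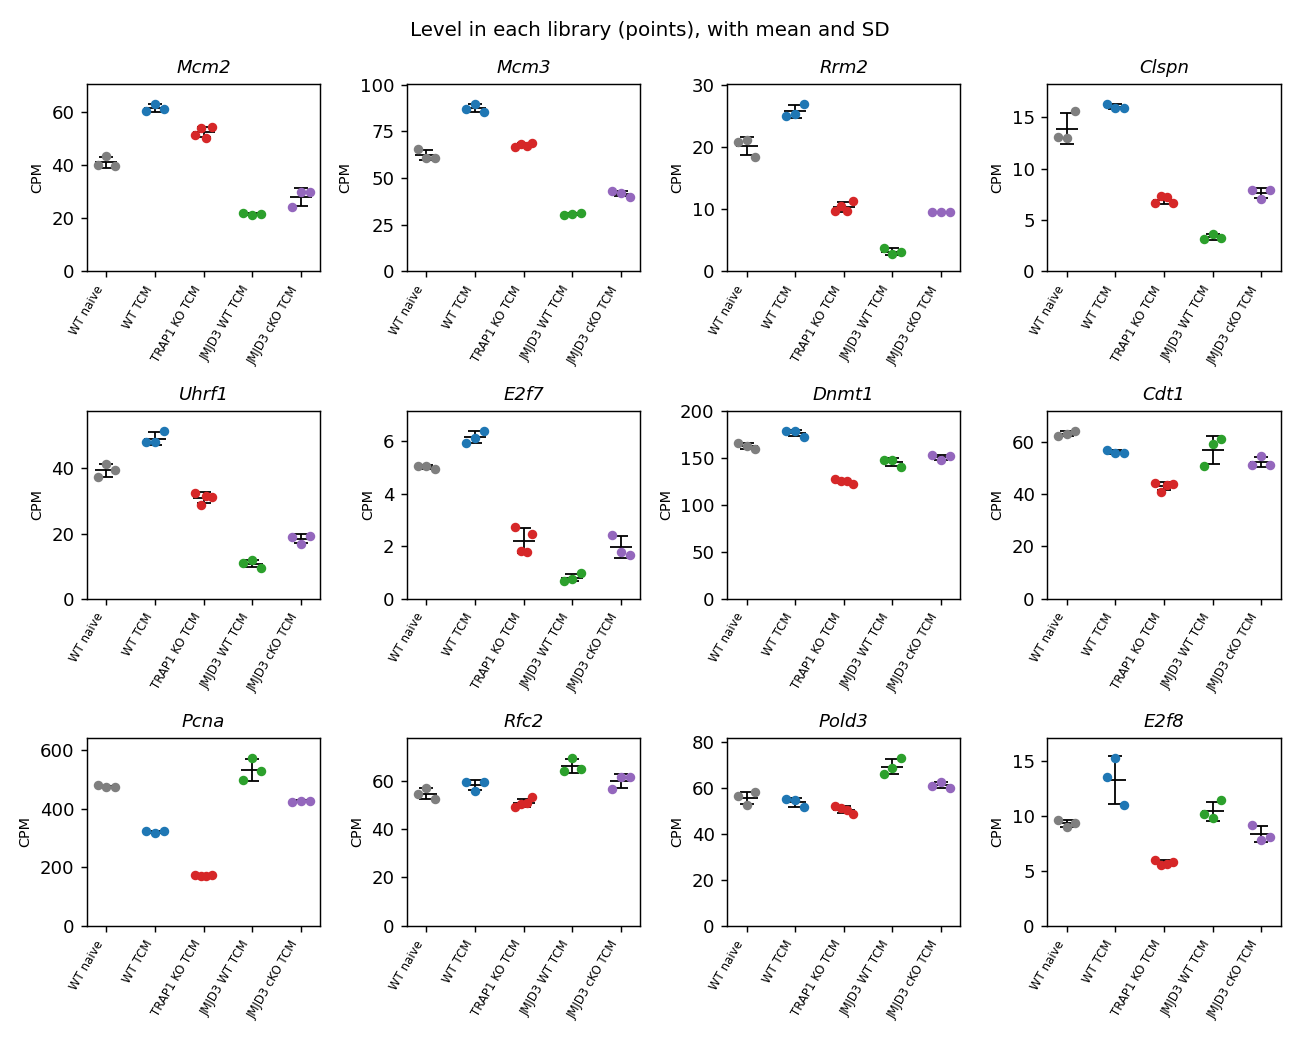
Points give the CPM of 12 genes in each library and bars the mean and SD of each group (n = 3, n = 4 for TRAP1 KO TCM; each axis starts at 0). Mcm2, Mcm3, Rrm2, Clspn, Uhrf1 and E2f7 are highest in WT TCM and lowest in JMJD3 WT TCM, whereas Pcna, Rfc2 and Pold3 are highest in JMJD3 WT TCM.

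The members' promoters were searched for E2F words. RefSeq promoter windows (GRCm38.p6, 250 bases before to 50 after a gene's start) were matched by symbol for 43 of the 51 genes. The 8 others were Mcm4, Gins1, Gins2, Gins4, Prim2, Pole, Rfc2 and Ccne2. The words were TTTCGCGC, TTTGGCGC, TTTCCCGC and TTTGCCGC on both strands, some of which overlapped each other (as in Mcm5 and Mcm6). At least 1 word was present for 19 of the 43 genes (44.2%, exact 95% interval 29.1% to 60.1%) and for 704 of all 27025 genes (2.61%). Those 27025 are all genes with a window, whether or not expressed here, and were not matched to the members for base composition. The interval treats the 43 genes as a random draw, which a named list is not. The share of members was 67.4% with 7-letter words, 16.3% within 150 bases before the start and 23.3% on the forward strand alone (10.9%, 1.44% and 1.38% of genes). By window, the shares were 36.5% of 52 member windows and 2.26% of all 32851. The CCAAT word was present for 65.1% of members and 41.1% of genes, and TTTGAA, the core of the element of cell-cycle genes active in G2 and mitosis, for 18.6% and 20.2%.

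The 26 E2F words lay on both sides of the start, and 16 were within 100 bases of it. Shown here are the windows, cut at 30 bases after the start, of the 4 members of different roles with the largest mean size of change over the TCM and TRAP1 comparisons among those with a word; capitals mark the E2F word, which in each is on the minus strand. They are E2f7 (chr10:110745189-110745468), Clspn (chr4:126556730-126557009), Cdc6 (chr11:98907901-98908180) and Gins3 (chr8:95633309-95633588), all on the plus strand of GRCm38.p6.
E2f7: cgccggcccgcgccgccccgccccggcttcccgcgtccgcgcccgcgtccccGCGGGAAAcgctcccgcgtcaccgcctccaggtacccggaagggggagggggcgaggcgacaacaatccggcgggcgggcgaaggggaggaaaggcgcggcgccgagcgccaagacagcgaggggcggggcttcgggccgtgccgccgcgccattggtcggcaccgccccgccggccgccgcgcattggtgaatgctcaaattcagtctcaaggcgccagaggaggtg
Clspn: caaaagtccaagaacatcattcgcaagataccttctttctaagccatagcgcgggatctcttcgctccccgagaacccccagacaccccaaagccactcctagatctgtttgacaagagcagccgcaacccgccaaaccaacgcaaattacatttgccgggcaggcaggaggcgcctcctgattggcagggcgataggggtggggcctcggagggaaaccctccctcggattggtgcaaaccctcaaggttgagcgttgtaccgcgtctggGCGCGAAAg
Cdc6: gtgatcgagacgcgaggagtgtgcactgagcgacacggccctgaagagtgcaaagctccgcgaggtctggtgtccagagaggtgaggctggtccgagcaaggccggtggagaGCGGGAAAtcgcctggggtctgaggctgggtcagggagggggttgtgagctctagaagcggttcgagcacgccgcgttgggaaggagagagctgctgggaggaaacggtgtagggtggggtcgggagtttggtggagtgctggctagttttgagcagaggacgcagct
Gins3: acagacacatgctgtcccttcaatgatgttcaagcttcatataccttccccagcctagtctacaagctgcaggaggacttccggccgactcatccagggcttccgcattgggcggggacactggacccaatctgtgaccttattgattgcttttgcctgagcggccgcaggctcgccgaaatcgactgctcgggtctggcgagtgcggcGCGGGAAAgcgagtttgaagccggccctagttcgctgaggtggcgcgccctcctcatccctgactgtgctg
Counted in bases from the start, the word lay at -198 in E2f7, -138 in Cdc6, -41 in Gins3 and 21 in Clspn. For the 19 members with a word and the 24 without, the median log2 fold changes were 0.28 and 0.31 with TCM, -0.48 and -0.49 without TRAP1, and 0.37 and 0.35 in JMJD3 cKO. With TCM, 11 of the 19 and 18 of the 24 were called higher, and the difference was not tested. A match is a run of letters and does not show that a factor binds there.

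**Figure D5:**
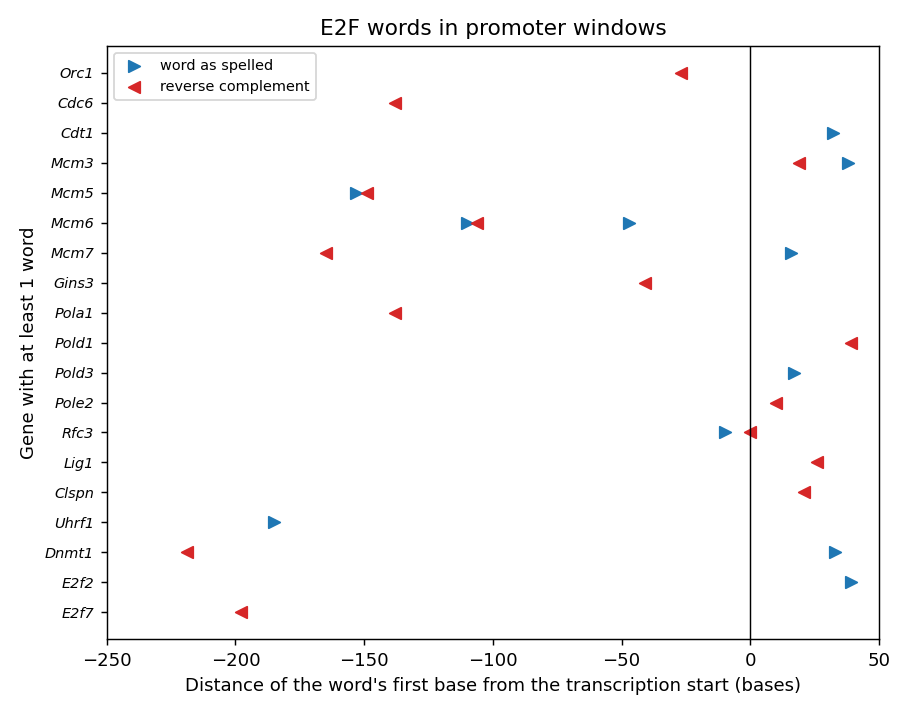
Each triangle is 1 E2F word in the promoter window of a member, placed by the distance of its first base from the transcription start (blue, as spelled; red, reverse complement), for the 19 genes with a word. The 26 words spread over the window, 14 of them before the start.

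Beside the members, 3 lists of related genes were counted. Of 36 other replication factors, 13 rose and 3 fell with TCM, and 2 rose and 25 fell without TRAP1. In JMJD3 cKO 13 were higher and 5 lower. Of all genes tested, 21.6% rose and 20.6% fell with TCM, and 21.2% rose and 21% fell without TRAP1. In JMJD3 cKO 17.3% of all genes were higher and 17.8% lower, so the 5 lower there are near that share. Pclaf, which binds PCNA, fell by 1.19 without TRAP1 and was higher by 0.92 in JMJD3 cKO, and Asf1b, a histone chaperone, fell by 0.93 and was higher by 0.35. The 3 lists had medians of -0.29 (replication factors), -0.12 (G1/S switch) and -1.43 (mitosis) without TRAP1, beside 0.01 over all genes.

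The G1/S switch list of 28 genes was mixed, with 10 higher and 5 lower with TCM, 8 higher and 14 lower without TRAP1, and 6 higher and 8 lower in JMJD3 cKO. The 5 lower with TCM and the 6 higher in JMJD3 cKO are near the shares of all genes (20.6% and 17.3%). Cdkn1a and Cdkn2b, which encode inhibitors of cyclin-dependent kinases, fell with TCM (-0.69 and -0.82) and rose without TRAP1 (0.92 and 1.97). Other inhibitors in the list went the other way: Cdkn1b (0.66) and Cdkn2d (0.71) rose with TCM and fell without TRAP1 (-0.13 and -0.69), and Cdkn2c fell without TRAP1 (-1.16). Ccna2, cyclin A of S phase, moved with the members, falling by 1.503 without TRAP1 and being higher by 0.81 in JMJD3 cKO. Of 21 genes of mitosis, 9 rose and 1 fell with TCM, all 21 fell without TRAP1 and 20 were higher in JMJD3 cKO. Bub1b, a spindle checkpoint kinase, fell by 2.03 without TRAP1, Plk1, a mitotic kinase, was higher by 1.43 in JMJD3 cKO, and the 1 mitosis gene lower in JMJD3 cKO was Tpx2 (-0.91).

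Markers of other marrow cells also differed between groups. The summed level of 12 genes of neutrophils and their precursors was 54.8 to 58.7 CPM for WT naive, 6.21 to 7.94 for WT TCM, 7.01 to 9.41 for TRAP1 KO TCM, 32.2 to 37.4 for JMJD3 WT TCM and 56.6 to 59.4 for JMJD3 cKO TCM. Mpo, Ctsg and Ly6g were at 0 counts in WT TCM, and Ly6g also in TRAP1 KO TCM and JMJD3 WT TCM. That sum moved against the members with TCM and with them in the JMJD3 line. The sum of 8 stem and progenitor genes was 5.89 to 7.18 CPM for WT naive and 3.05 to 4.65 CPM in the other groups, with Gata1 at 0 in 3 groups. The sum of 7 fibroblast genes was 13.8 to 14.7 CPM for WT naive, 0.317 to 0.496 for WT TCM and 4.92 to 7.39 for TRAP1 KO TCM. The sum of 6 dendritic cell genes was 8.04 to 10.5 CPM for JMJD3 WT TCM and 4.01 to 5.44 for JMJD3 cKO TCM. The macrophage marker sum had medians of 15900 CPM for WT naive, 26374 for WT TCM, 25619 for TRAP1 KO TCM, 16196 for JMJD3 WT TCM and 13034 for JMJD3 cKO TCM. The part of these cells in the members' changes was not tested.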

How the data were processed

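The 16 RNA sequencing libraries of macrophages were analysed as deposited: a raw count per gene identifier and library, made by the authors. RSEM, Bowtie2, StringTie and HISAT, and the build mm10, appear without a role in the submitters' processing notes; the counting tool, annotation release and strand setting were not stated in the sources used here. Symbols came from GENCODE M21 (54495 of 54532 identifiers; the other 37 held at most 0.0036% of a library). Groups came from the labels.

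Counts were filtered with filterByExpr (minimum 10), scaled by TMM and tested with edgeR 4.0.16 (R 4.3.3; quasi-likelihood, robust), with Benjamini-Hochberg adjustment over all genes tested and a threshold of 0.05. One fit held the 10 libraries outside the JMJD3 line, another the 6 within it, and the last all 16. CPM levels used TMM over all 16 libraries. The code was tested on simulated data. Alternatives were DESeq2 1.42.0, other scalings and filters, leaving out each library, a replicate block and, chosen after seeing the data, adding pseudogene copies. Members and lists were chosen with earlier results of these data known.

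Libraries are shown in full for the most abundant member of each role, the 3 members with the smallest adjusted p per comparison and members called against the majority; some further members were chosen after their values were seen. Genes outside the set are among the 3 with the largest change per list, direction and comparison. In all 18 replicate pairs, counts differed beyond sampling noise.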

Additional observations from a re-analysis of the deposited data

Results flagged for a closer look

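The Rfc5 level of TRAP1 KO TCM replicate 3, 17.2 CPM, stood apart from the 14.9 to 15.2 CPM of the other 3 libraries of its group. Of the 51 members tested in that group, this was the only one. The rule flags about 1 in 20 members by chance, so 1 of 51 is no more than chance alone gives.

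The effect of TRAP1 loss (TRAP1 KO TCM minus WT TCM) was set against the effect in the JMJD3 line (JMJD3 cKO TCM minus JMJD3 WT TCM) for each member, by an interaction term in edgeR's quasi-likelihood test over all 16 libraries. The difference passed for 45 members, each lower in the TRAP1 comparison, with adjusted p of 0.048 or less. Each value is a difference of log2 fold changes. Under origin licensing it was -0.61 for Orc1, -0.76 for Orc6, -1.25 for Cdc6, -0.26 for Cdt1, -0.60 for Mcm2, -0.81 for Mcm3, -0.42 for Mcm4, -0.91 for Mcm5, -0.42 for Mcm6 and -1.17 for Mcm7. Under helicase activation it was -1.36 for Mcm10, -1.21 for Cdc45, -0.54 for Gins1, -0.50 for Gins2 and -1.05 for Gins3. Under primase and polymerases it was -1.12 for Pola1, -0.29 for Pola2, -0.88 for Prim1, -0.46 for Prim2, -0.60 for Pold1, -0.57 for Pold2, -1.61 for Pole and -0.63 for Pole2. Under clamp and clamp loader it was -0.57 for Pcna, -0.78 for Rfc4 and -0.74 for Rfc5. Under single-strand binding it was -0.44 for Rpa1 and -0.70 for Rpa2. Under Okazaki fragment maturation it was -0.75 for Fen1 and -0.92 for Lig1. Under nucleotide supply it was -0.86 for Rrm1, -2.89 for Rrm2, -1.46 for Tyms and -1.34 for Tk1. Under checkpoint mediator it was -2.39 for Clspn. Under chromatin assembly and histone mRNA it was -1.24 for Chaf1a and -0.66 for Chaf1b. Under maintenance methylation it was -1.44 for Uhrf1 and -0.55 for Dnmt1. Under G1/S cyclins and E2F factors it was -1.35 for Ccne1, -1.58 for Ccne2, -0.33 for E2f1, -0.80 for E2f2, -2.76 for E2f7 and -0.89 for E2f8. With pseudogene copies added, the Pcna difference was -0.18 (adjusted p = 4.1e-05). The genotypes come from different lines, and line and sex cannot be told apart. Each targeted gene also differed in the other comparison. Kdm6b was higher without TRAP1 (0.63, edgeR adjusted p = 8.4e-09), and Trap1 was higher in JMJD3 cKO (0.22, edgeR adjusted p = 0.00051).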

How the results depend on the processing

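The member counts called higher or lower kept within 1.5 times of those reported under other scalings, filters and tests, except that 2 in place of 4 members were lower in JMJD3 cKO with DESeq2 and with no low-count filter. There, other replication factors called higher numbered 7 with DESeq2 and G1/S switch genes called lower 5 with no filter. The median over members was 0.37 with upper-quartile scaling and 0.31 with a minimum of 50 counts in JMJD3 cKO, and -1.21 with upper-quartile scaling between the wild-type controls. The cause was not tested. With 1 library left out, the medians ranged from -0.49 to -0.43 without TRAP1, 0.26 to 0.33 in JMJD3 cKO, -1.18 to -1.02 between the controls and -0.79 to -0.70 for the difference of effects; G1/S switch genes lower in JMJD3 cKO numbered 5 to 7, and members higher in the difference 0 to 1.

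The share of members with an E2F word was 67.4% with 7-letter words (10.9% of genes), 16.3% within 150 bases before the start (1.44%) and 23.3% on the forward strand (1.38%). Uncalled values near 0 changed sign. With TCM these were E2f1 (-0.0084 with upper-quartile scaling, -0.0064 with no filter, -0.0055 with a minimum of 50 counts, and -0.018 to 0.029 with a library left out), Gins4 (-0.14 to 0.019) and Mcm6 (-0.0041 to 0.050). In JMJD3 cKO, with a library left out, they were Gins1 (-0.029 to 0.18), Gins4 (-0.066 to 0.041), Pola2 (-0.089 to 0.0062) and E2f2 (-0.045 to 0.18).

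Replicate numbers did not pair the libraries: deviations of same-numbered libraries correlated at -0.031 to 0.019, and others at -0.033 to 0.032. With the replicate number as a block, 33 members were higher and 2 lower with TCM, 45 lower without TRAP1, 28 lower and 3 higher against WT naive, 27 higher and 4 lower in JMJD3 cKO, 44 lower and 3 higher between the controls, and 44 lower for the difference of effects. Fen1, at 898 counts, and E2f7 in JMJD3 WT TCM, at 37 counts, had the least depth.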
